A study of Mus musculus with 17 samples.

Results

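The 9 glycolytic enzyme genes Hk1, Hk2, Gpi1, Pfkl, Aldoa, Tpi1, Pgk1, Pkm and Ldha, together with Hif1a, were followed across 4 groups of myeloid cells sorted from the mouse brain. They were chosen by gene symbol, and all 10 were found among the 13769 genes of the authors' deposited table, each in a single entry. RNA sequencing covered 17 libraries from C57bl6/j mice. BU-treated mice that had received GFP Lin- cells 3 months earlier gave 3 libraries of transplanted µ and 3 of transplanted TAµ. The controls were 3 libraries of adult control µ, from animals aged 5 months, and 8 libraries of P10 TAµ, from pups at postnatal day 10. The terms µ, TAµ and BU are not spelled out in the labels. Since the labels do not state if GFP was used in the sort, donor cells and cells kept by the host cannot be told apart in the transplanted groups. The question put in the series title is how near to microglia the brain myeloid progeny of grafted stem and progenitor cells come. Libraries of transplanted µ and transplanted TAµ carry matching sample letters, so they may share mice. P-values measure the spread between libraries, which the labels do not tie to separate animals.

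Glycolysis breaks glucose down to pyruvate in the cytosol. Hexokinases trap glucose in the cell, phosphofructokinase commits it to the pathway, aldolase and triosephosphate isomerase split the sugar, and phosphoglycerate kinase and pyruvate kinase recover ATP. Lactate dehydrogenase A then turns pyruvate into lactate and so restores the NAD that the pathway needs. Hif1a encodes the oxygen-regulated subunit of the transcription factor HIF1, which is held in check largely at the level of protein stability and which switches on many genes of glycolysis. Macrophages and microglia are known to raise glycolysis on inflammatory activation, and dividing cells use it to supply building blocks for growth.

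Ldha, Pkm and Aldoa, which act in the lower and middle steps, were lower in adult control µ than in each of the other 3 groups, and Ldha was higher in P10 TAµ than in the 3 other groups. The calls of Pkm in transplanted µ and of Aldoa in P10 TAµ against adult control µ ended when differences were centred on the median of all genes. No member passed the test between transplanted µ and transplanted TAµ. Hif1a, both hexokinase genes and Pfkl passed the test in none of the 6 comparisons between groups. The other 6 members passed in at least 1 comparison, as did 59.5% of all genes in the authors' deposited table, so the members were called about as often as genes at large. With differences centred on the median of all genes, Pfkl did pass, as lower in P10 TAµ than adult control µ, at -0.90. Under that centring Pfkl was also higher than in P10 TAµ by 1.04 in transplanted TAµ and by 0.86 in transplanted µ. The values are log2 differences of the authors' deposited table, given as the group named first minus the group named second. Values after ± are standard errors (SE) recovered from fold changes and p-values of the authors' deposited table. Genes are called higher or lower where the limma adjusted p in that table, by the authors' deposited values, is below 0.05. Values per library were not analysed here, so the spread over libraries is given by these standard errors alone. Over the 4 groups the moderated F of the authors' deposited table passed an adjusted p of 0.05 for 6 of the 10 genes, beside 52.2% of all genes.

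Average log2 expression in the authors' deposited table ran from 2.44 for Pgk1 to 7.48 for Hk2, and 9 of the 10 genes stood above the median of all genes, 3.13. The 10 brain myeloid cell markers that were checked, among them Csf1r, Cx3cr1 and Aif1, had averages of 7.97 or more in the authors' deposited table. Markers of other brain cells were also listed at sizeable averages, with the astrocyte glutamate transporter gene Slc1a2 at 8.90 and the myelin gene Mbp at 7.53 in the authors' deposited table. The normalization is not known to correct for gene length, so levels are compared between groups and not between genes. Processed pseudogenes, which are copies of spliced transcripts in the genome, are frequent for glycolysis genes and bear on how short reads can be assigned to genes. Of the windows of 50 bases in Pgk1 transcripts, 68.0% also occur in a transcript of another gene in GENCODE vM21, and all 5 of these genes are annotated as pseudogenes. The share was 24.5% for Gpi1, 23.7% for Pkm, 10.4% for Ldha, 6.83% for Tpi1, 6.57% for Aldoa, 6.26% for Hif1a, 1.64% for Hk1, 0.0532% for Pfkl and 0% for Hk2. Pseudogenes were all 14 of the genes that share windows with Ldha, 7 of 8 for Pkm, 5 of 6 for Aldoa and 2 of 2 for Tpi1, but 2 of 122 for Gpi1 and 0 for Hif1a, Hk1 and Pfkl. How the authors treated reads with several matches is not given in the sources used here, so the level of Pgk1 is uncertain.

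The promoters of the 4 members that were higher in P10 TAµ than adult control µ are shown, because HIF1 binds a short element whose core letters can be searched in them. Sequences are the 250 bases before the RefSeq start on GRCm38.p6 (mm10), written along the gene's strand, and for genes with several starts the start nearest to most GENCODE vM21 transcript starts was used. Capitals mark the core letters ACGTG or GCGTG on either strand, and overlapping matches, such as both strands of CACGTG, count as 1 place.
Ldha (chr7:46845554-46845803, plus strand): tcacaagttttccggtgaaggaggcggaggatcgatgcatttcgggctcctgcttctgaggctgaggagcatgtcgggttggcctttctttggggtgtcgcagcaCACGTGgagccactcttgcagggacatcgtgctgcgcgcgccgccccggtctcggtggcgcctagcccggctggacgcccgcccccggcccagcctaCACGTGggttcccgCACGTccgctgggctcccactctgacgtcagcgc
Pgk1 (chrX:106186850-106187099, plus strand): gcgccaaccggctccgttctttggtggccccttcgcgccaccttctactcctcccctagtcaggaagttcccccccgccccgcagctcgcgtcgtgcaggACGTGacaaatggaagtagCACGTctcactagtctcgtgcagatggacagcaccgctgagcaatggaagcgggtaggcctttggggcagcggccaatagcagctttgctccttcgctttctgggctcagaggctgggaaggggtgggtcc
Aldoa (chr7:126799179-126799428, minus strand): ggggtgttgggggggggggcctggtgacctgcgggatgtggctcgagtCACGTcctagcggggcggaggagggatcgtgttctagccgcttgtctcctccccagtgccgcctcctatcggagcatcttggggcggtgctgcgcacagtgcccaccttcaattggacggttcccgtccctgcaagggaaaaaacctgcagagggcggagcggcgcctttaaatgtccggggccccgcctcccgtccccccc
Pkm (chr9:59656326-59656575, plus strand): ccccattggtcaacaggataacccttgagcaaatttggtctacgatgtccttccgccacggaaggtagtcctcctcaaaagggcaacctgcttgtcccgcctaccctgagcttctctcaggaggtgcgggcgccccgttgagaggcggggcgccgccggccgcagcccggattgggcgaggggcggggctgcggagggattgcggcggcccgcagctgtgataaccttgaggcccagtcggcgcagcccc
The Ldha window held 3 places, beginning 145, 48 and 34 bases before the start, and 2 of them read CACGTG. Pgk1 held 2 places, 150 and 131 bases before the start, Aldoa held 1 place at 202 bases, and Pkm held 0. Among the other members Hk2 held 2 places, Hif1a held 2 and Pfkl held 1, while Hk1, Gpi1 and Tpi1 held 0. In all, 6 of the 10 windows held the core. Over every RefSeq start of the members it was 10 of 15 windows, beside 38.6% of 32851 windows of the same length in the table of RefSeq promoters. Windows of 2 Aldoa starts overlap and hold the same place, which is thus counted in each of them. The places depend on the start chosen, as another start of Hk1 held 2 and another of Pkm held 1. At least 3 places, as in Ldha, were found in 4.65% of all windows. A match is a description of the letters and not evidence of binding.

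**Figure D1:**
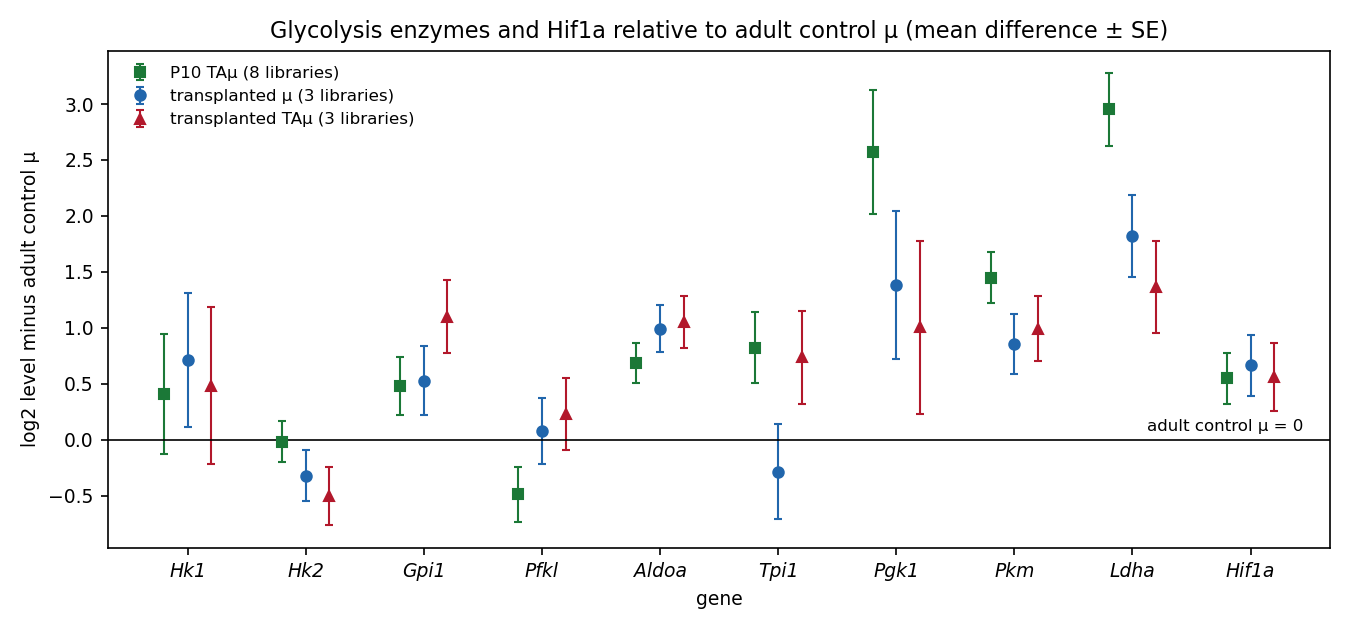
Log2 level of each gene minus its level in adult control µ (y axis), by gene (x axis), for P10 TAµ (squares, 8 libraries), transplanted µ (circles, 3 libraries) and transplanted TAµ (triangles, 3 libraries), with error bars of 1 standard error. Ldha stands highest in P10 TAµ at 2.95, with transplanted µ at 1.82 and transplanted TAµ at 1.36, whereas all 3 Hif1a values lie between 0.55 and 0.66.

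The controls were compared first. Ldha, the enzyme of lactate production, was 7.73-fold higher in P10 TAµ than adult control µ, at 2.95 ± 0.32 (limma adjusted p = 4.08e-06) in the authors' deposited table. Pkm, the gene of pyruvate kinase in most tissues, was higher by 1.45 ± 0.23 (limma adjusted p = 0.000125) in the authors' deposited table. Pkm yields a pair of enzymes by use of alternative exons, which a value per gene does not separate. Pgk1, whose enzyme makes the earliest ATP of the pathway, was higher by 2.57 ± 0.55 (limma adjusted p = 0.00181) in the authors' deposited table, with the limit on its level given above. Aldoa, the aldolase of muscle and most other tissues, was higher by 0.69 ± 0.18 (limma adjusted p = 0.00709) in the authors' deposited table.

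No gene of the upper steps passed the test. Hk1 differed by 0.41 ± 0.54 and Hk2, the inducible hexokinase, by -0.02 ± 0.18 (limma adjusted p = 0.955), by the authors' deposited table. The 95% interval of the Hk2 difference ran from -0.40 to 0.37. Gpi1, which converts glucose phosphate to fructose phosphate, differed by 0.48 ± 0.26 (limma adjusted p = 0.152) in the authors' deposited table. Pfkl, the liver-type phosphofructokinase, differed by -0.49 ± 0.25 (limma adjusted p = 0.131) in the authors' deposited table. Tpi1, which interconverts the products of aldolase, differed by 0.82 ± 0.32 (limma adjusted p = 0.0508) and Hif1a by 0.55 ± 0.23 (limma adjusted p = 0.0678) in the authors' deposited table.

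In this comparison 4 of the 10 genes were higher and 0 lower, beside 23.2% and 12.5% of all genes, or 35.7% in either direction, in the authors' deposited table. The median difference of the 10 was 0.62 and that of all genes 0.41 in the authors' deposited table. With differences centred on that median of all genes, Aldoa no longer passed the test, at 0.28, and Pfkl was lower, at -0.90. P10 TAµ and adult control µ differ in age and in population, which cannot be told apart here. Cell division genes moved with these groups, as 10 of 10 such genes, between 2.61 and 6.85, were higher in P10 TAµ in the authors' deposited table. The sign of the fold changes was set on these 10 genes, so their direction is no finding, and their part in the glycolysis differences was not tested. Of 12 neuron markers 7 were higher and 0 lower in P10 TAµ, of 12 astrocyte markers 3 and 1, of 10 oligodendrocyte markers 4 and 0, of 3 erythroid markers 2 and 0, of 4 endothelial markers 1 and 0, of 5 neutrophil markers 0 and 4, and of 10 brain myeloid cell markers 2 and 2, in the authors' deposited table. Their part was not tested either.

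Transplanted µ was then compared with adult control µ, the same labelled population in control mice. Ldha was 3.54-fold higher, at 1.82 ± 0.37 (limma adjusted p = 0.00266), in the authors' deposited table. Aldoa was 1.99-fold higher, at 0.99 ± 0.21 (limma adjusted p = 0.00383), and Pkm 1.81-fold higher, at 0.86 ± 0.27 (limma adjusted p = 0.0305), in the authors' deposited table. These 3 genes were the members called, beside 11.3% of all genes that were higher and 10.5% that were lower, 21.8% together, in the authors' deposited table. The median of all genes was 0.19, and with differences centred on it Pkm did not pass the test, at 0.67.

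Among the members that did not pass, Pgk1 had a difference of 1.38 ± 0.66 (limma adjusted p = 0.139) and Hk1 one of 0.71 ± 0.60 in the authors' deposited table. Hif1a differed by 0.66 ± 0.27 (limma adjusted p = 0.0851) and Gpi1 by 0.53 ± 0.31 in the authors' deposited table. The values of Pfkl, Tpi1 and Hk2 were 0.08 ± 0.29, -0.29 ± 0.42 and -0.32 ± 0.23 in the authors' deposited table. The sign of the Pfkl value turned under centring, to -0.10. For Hif1a the 95% interval ran from 0.10 to 1.23, without adjustment for the number of genes.

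Of 10 brain myeloid cell markers 4 were higher and 0 lower in transplanted µ, by the authors' deposited table. Markers of other brain cells were higher as well. Of 12 astrocyte markers 8 were higher and 0 lower, of 12 neuron markers 7 and 0, and of 10 oligodendrocyte markers 3 and 0, in the authors' deposited table. Of 4 endothelial and 5 neutrophil markers measured 0 were called, and of 3 erythroid markers 1 was higher and 0 lower by the authors' deposited table. Aldoc, the aldolase typical of astrocytes, was higher by 2.33 ± 0.59 (limma adjusted p = 0.0111) in the authors' deposited table. Brain cells of all these kinds carry out glycolysis, and the part of their transcripts in the values of Ldha, Aldoa and Pkm was not tested. In sorted populations a change in the mix of cells and a change of RNA per cell cannot be told apart.

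Transplanted TAµ was compared with P10 TAµ, the same labelled population at postnatal day 10. Ldha was 3.01-fold lower in transplanted TAµ, at -1.59 ± 0.29 (limma adjusted p = 0.000637), in the authors' deposited table. It was the only member called, beside 15.3% of all genes that were lower and 10.5% that were higher, 25.7% together, in the authors' deposited table. Pgk1 had a difference of -1.56 ± 0.58 (limma adjusted p = 0.0555) and Pkm one of -0.46 ± 0.23 (limma adjusted p = 0.152) in the authors' deposited table. Pfkl differed by 0.72 ± 0.28 (limma adjusted p = 0.0642), Gpi1 by 0.62 ± 0.25 (limma adjusted p = 0.0824) and Aldoa by 0.37 ± 0.19 (limma adjusted p = 0.161) in the authors' deposited table.

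Each of the other 4 members failed to pass as well. Hk2 differed by -0.49 ± 0.23, Tpi1 by -0.09 ± 0.32, Hk1 by 0.07 ± 0.55 and Hif1a by 0.02 ± 0.25 in the authors' deposited table. The 95% interval of Hif1a, from -0.51 to 0.54, holds changes of either sign. The median of all genes was -0.33, and with differences centred on it Pfkl at 1.04, Gpi1 at 0.94 and Aldoa at 0.69 passed the test as higher, Ldha stayed lower at -1.26, and the Tpi1 value turned to 0.24. Astrocyte markers were higher here in 9 of 12 cases and lower in 0, neuron markers in 4 of 12 and 0, and oligodendrocyte markers in 3 of 10 and 0, in the authors' deposited table. Of 4 endothelial markers 2 were lower and 0 higher, of 3 erythroid markers 2 were higher and 0 lower, and of 5 neutrophil markers 0 were called, in the authors' deposited table. All 10 cell division genes were lower, with a median of -5.02, and of 10 brain myeloid cell markers 2 were higher and 3 lower, by the authors' deposited table. The part of these sets in the differences of the glycolysis genes was not tested.

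Between the transplanted fractions no member passed the test, beside 6.49% of all genes, 3.56% higher and 2.93% lower, by the authors' deposited table. The count of members at an unadjusted p below 0.05 was 1, Tpi1, with a difference of 1.02 ± 0.43 (limma adjusted p = 0.161) in the authors' deposited table. Ldha differed by -0.46 ± 0.33, Gpi1 by 0.57 ± 0.31 and Pgk1 by -0.38 ± 0.69 in the authors' deposited table. The remaining 6 members lay between -0.23 for Hk1 and 0.15 for Pfkl in the authors' deposited table. The 95% intervals were narrowest for Aldoa, from -0.40 to 0.52, and widest for Pgk1, from -1.82 to 1.06, so a moderate difference in Pgk1 was not detectable at this spread. Of the 10 brain myeloid cell markers 5 were lower and 0 higher in transplanted TAµ, in the authors' deposited table, beside 1 of 12 astrocyte, 1 of 10 oligodendrocyte and 1 of 3 erythroid markers that were higher.

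**Figure D2:**
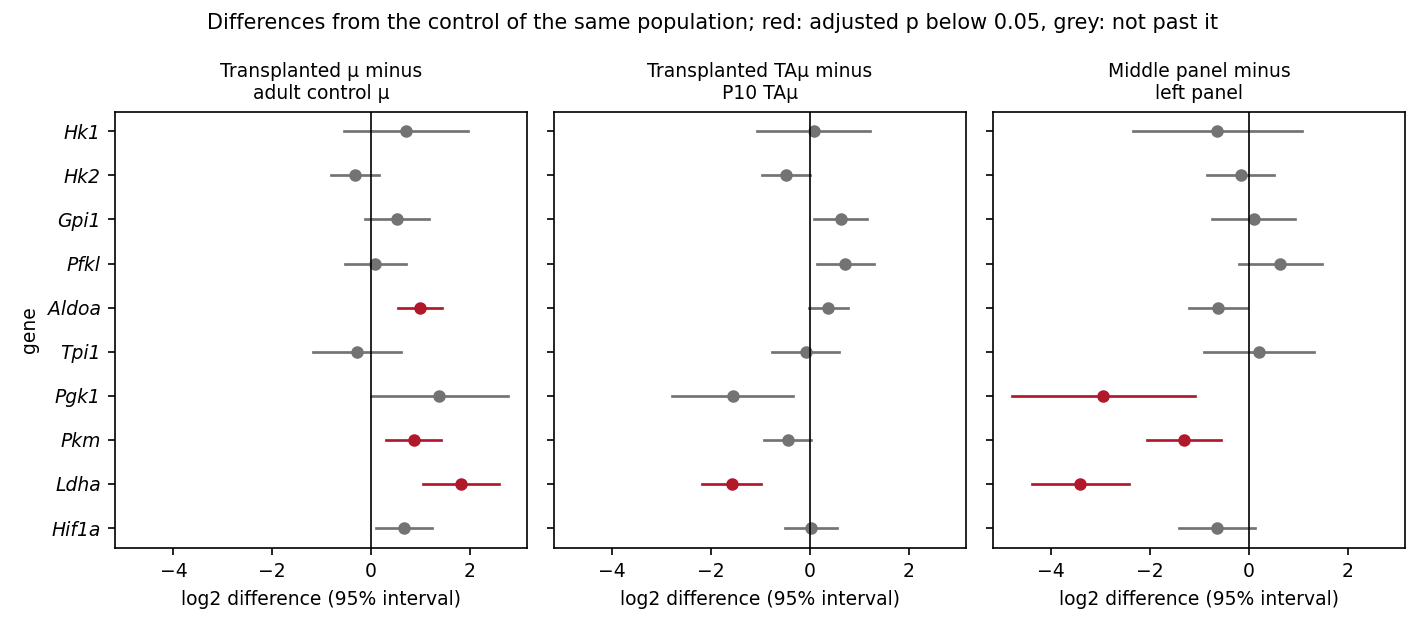
Log2 differences with 95% intervals (x axis) for the 10 genes (y axis) in transplanted µ minus adult control µ, transplanted TAµ minus P10 TAµ, and the second minus the first of these differences, with red for adjusted p below 0.05. Ldha is at 1.82 in the left panel, -1.59 in the middle panel and -3.41 in the right panel, and Hif1a is grey in all 3 panels.

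The differences of the transplanted fractions from the control of the same labelled population share no group, so 1 can be subtracted from the other and tested. In TAµ this difference sets mice 3 months after transplantation against pups at postnatal day 10, so age, BU treatment and transplantation cannot be told apart in it. In µ it sets BU-treated mice 3 months after transplantation against control mice aged 5 months. BU treatment and transplantation cannot be told apart in the µ term either, and the labels give no age for the transplanted mice. The contrast, TAµ minus µ, was -3.41 ± 0.47 for Ldha (limma-type adjusted p = 0.00029), -2.95 ± 0.88 for Pgk1 (limma-type adjusted p = 0.0347) and -1.31 ± 0.35 for Pkm (limma-type adjusted p = 0.0218), derived from the authors' deposited table. These 3 genes passed with a more negative value in TAµ and 0 with a more positive one, beside 9.61% and 3.76% of all genes. In the same test 5 of 10 brain myeloid cell markers and 4 of 10 cell division genes were more negative in TAµ, as were 1 of 12 neuron, 1 of 10 oligodendrocyte and 1 of 4 endothelial markers, and 0 markers of these lists were more positive. Their part in the values of Ldha, Pgk1 and Pkm was not tested. Aldoa differed by -0.63 ± 0.28 (limma-type adjusted p = 0.145) and Hif1a by -0.65 ± 0.37 (limma-type adjusted p = 0.252). The 95% interval of the Hif1a difference ran from -1.42 to 0.13. Hk1, Hk2, Gpi1, Pfkl and Tpi1 lay between -0.64 and 0.63 and did not pass. The median of all genes was -0.50, and centred on it Ldha still passed, at -2.91, while Pgk1 at -2.44 and Pkm at -0.81 did not. By construction the same quantity is the difference between the transplanted fractions minus the difference between P10 TAµ and adult control µ. For Ldha these parts were -0.46 and 2.95 in the authors' deposited table, so the larger part lay between the controls, which differ in age and in population.

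Each transplanted fraction was also set against the control of the other population. Transplanted TAµ had 4 members higher than adult control µ, beside 16.7% of all genes higher and 13.4% lower, 30.1% together, in the authors' deposited table. These were Ldha by 1.36 ± 0.41, Gpi1 by 1.10 ± 0.32, Aldoa by 1.05 ± 0.23 and Pkm by 0.99 ± 0.29, with limma adjusted p between 0.00273 and 0.018, in the authors' deposited table. Astrocyte markers were higher there in 10 of 12 cases, neuron markers in 10 of 12 and oligodendrocyte markers in 6 of 10, and lower in 0 of these lists, in the authors' deposited table. Of 3 erythroid markers 2 were higher, of 4 endothelial markers 1 was lower, and of 10 brain myeloid cell markers 1 was higher and 1 lower by the authors' deposited table, and the part of these sets was not tested. Hif1a differed there by 0.56 ± 0.30 (limma adjusted p = 0.168) in the authors' deposited table. Against P10 TAµ, transplanted µ had 3 members lower and 0 higher, beside 12.6% and 7.63% of all genes, 20.3% together, in the authors' deposited table. Ldha was lower at -1.13 ± 0.22 (limma adjusted p = 0.00158), Tpi1 at -1.11 ± 0.33 (limma adjusted p = 0.0254) and Pkm at -0.59 ± 0.20 (limma adjusted p = 0.0396), by the authors' deposited table. The median of all genes was -0.29 in this comparison, and centred on it Tpi1 at -0.82 and Pkm at -0.30 did not pass. With that centring Pfkl at 0.86 and Aldoa at 0.60 passed as higher, and Ldha stayed lower. Hif1a differed by 0.12 ± 0.21 (limma adjusted p = 0.720) in the authors' deposited table. In this comparison 10 of 10 cell division genes were lower, with a median of -5.74, by the authors' deposited table. Higher and lower counts were 5 and 0 of 12 for astrocyte markers, 3 and 1 of 10 for oligodendrocyte markers, 1 and 2 of 12 for neuron markers, and 3 and 0 of 10 for brain myeloid cell markers, in the authors' deposited table. Of 4 endothelial markers 1 was lower, and their part was not tested. Comparisons that share a control group are not independent of each other.

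The order of the groups differed between members. For Ldha it ran from adult control µ through transplanted TAµ and transplanted µ to P10 TAµ. In that order, transplanted TAµ was higher than adult control µ and P10 TAµ was higher than transplanted µ, whereas the transplanted fractions did not differ beyond their spread (limma adjusted p = 0.442 in the authors' deposited table). For Pkm the lowest step, from adult control µ to transplanted µ, was the step between neighbours that passed (limma adjusted p = 0.0305 in the authors' deposited table). For Aldoa it was the step from adult control µ to P10 TAµ (limma adjusted p = 0.00709 in the authors' deposited table). No pair of neighbours in the order passed the test for Hk1, Hk2, Gpi1, Pfkl, Tpi1, Pgk1 or Hif1a. For Pgk1 the step between transplanted µ and P10 TAµ, 1.19, came nearest (limma adjusted p = 0.0528 in the authors' deposited table).

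Other enzyme genes of the pathway were read from a list of 15, of which 11 were measured. In P10 TAµ against adult control µ 1 was higher, the enolase gene Eno1 with a 95% interval of 0.46 to 1.53 (limma adjusted p = 0.00593), and 1 lower, Gapdh at -1.27 ± 0.41 (limma adjusted p = 0.0231), in the authors' deposited table. Gapdh catalyses the step between Tpi1 and Pgk1, and 58.4% of its windows of 50 bases also occur in transcripts of other genes, 213 of them pseudogenes. For Eno1 that share was 49.5%, so both values are uncertain. In transplanted µ against adult control µ Aldoc was the 1 gene of that list called as higher, and 0 were lower, in the authors' deposited table.

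Against P10 TAµ, transplanted TAµ had 3 of the 11 other enzymes higher and 1 lower by the authors' deposited table. Higher were Aldoc by 3.45 ± 0.46 (limma adjusted p = 4.59e-05), the muscle-type phosphofructokinase gene Pfkm by 2.63 ± 0.66 (limma adjusted p = 0.00711) and Ldhb, the lactate dehydrogenase chain typical of heart and brain, by 1.95 ± 0.60 (limma adjusted p = 0.0243), in the authors' deposited table. Hk3, the hexokinase typical of myeloid cells, was lower at -1.58 ± 0.36 (limma adjusted p = 0.00351) in the authors' deposited table. Hk3 was also lower in transplanted TAµ than in transplanted µ, at -1.36 ± 0.39 (limma adjusted p = 0.0457), where no member was called in the authors' deposited table. The contrast of TAµ minus µ was -1.95 ± 0.46 for Hk3 (limma-type adjusted p = 0.0109). Over all 20 measured enzymes of the pathway, 5 were higher and 1 lower in P10 TAµ against adult control µ, 4 and 0 in transplanted µ against adult control µ, 3 and 2 in transplanted TAµ against P10 TAµ, and 7 and 0 in transplanted TAµ against adult control µ, in the authors' deposited table. Among genes at large the shares higher and lower were 23.2% and 12.5% in the earliest of these comparisons, 11.3% and 10.5% in the next, 10.5% and 15.3% in the one after, and 16.7% and 13.4% in the last, in the authors' deposited table.

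**Figure D3:**
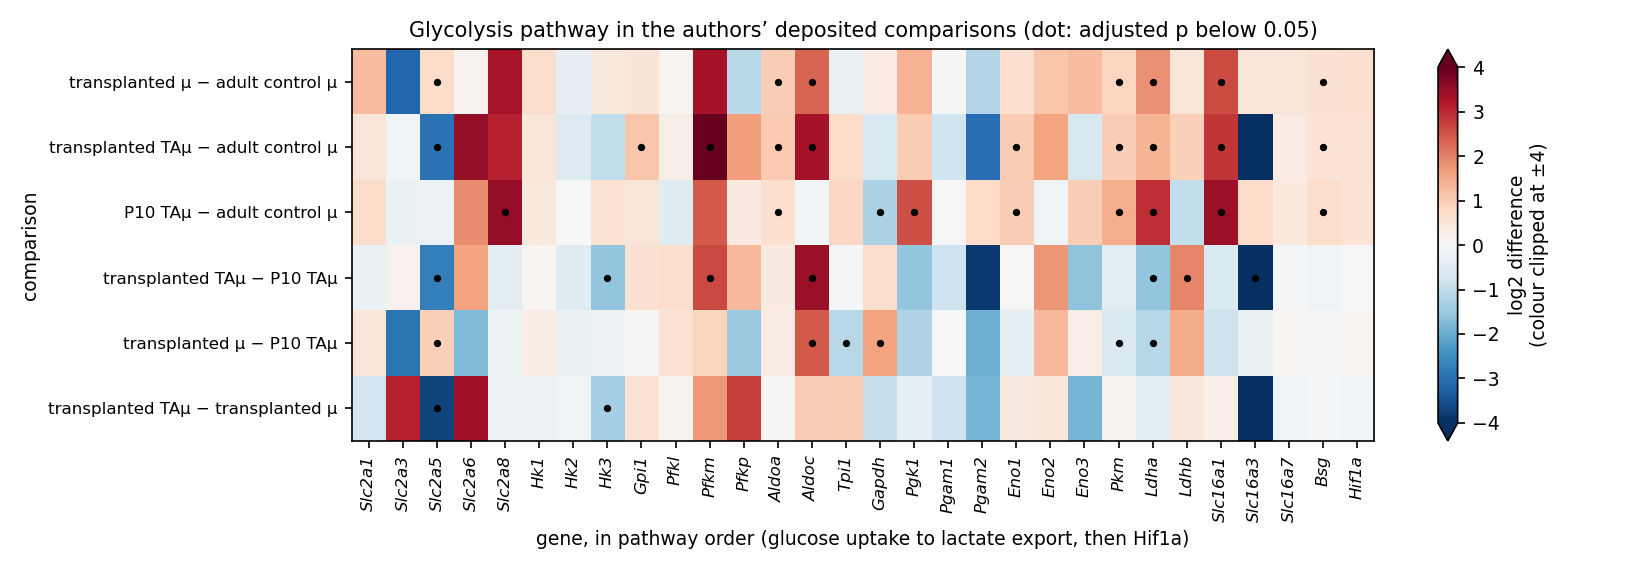
Log2 differences of transport and enzyme genes in pathway order and of Hif1a (x axis) in the 6 comparisons (y axis), as colour clipped at 4 in either direction, with a dot for adjusted p below 0.05. The Ldha column carries a dot in 5 of 6 comparisons, and the Hk1, Hk2, Pfkl and Hif1a columns carry 0.

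Transport of glucose and lactate was measured through 9 genes. Slc16a1, a monocarboxylate transporter that moves lactate across the membrane, was higher in P10 TAµ than adult control µ by 3.43 ± 0.74 (limma adjusted p = 0.00193) in the authors' deposited table. It was also higher in transplanted µ, by 2.60 ± 0.80, and in transplanted TAµ, by 2.86 ± 0.82, against that same control in the authors' deposited table. Bsg, the chaperone of these transporters, was higher by 0.69 ± 0.14 in P10 TAµ, by 0.62 ± 0.17 in transplanted µ and by 0.54 ± 0.19 in transplanted TAµ in the authors' deposited table. The contrast of TAµ minus µ passed for 4 of the 9 genes, each more negative in TAµ, beside 9.61% of all genes. Slc16a1 was among the 4, at -3.17 ± 0.90 (limma-type adjusted p = 0.0282). Slc2a5, a fructose transporter gene typical of microglia, was among these 4, and it was 12.9-fold lower in transplanted TAµ than in transplanted µ, at -3.69 ± 0.43 (limma adjusted p = 7.58e-05), in the authors' deposited table. Slc2a1, the main glucose transporter gene among HIF1 targets, differed by 1.23 ± 0.45 in transplanted µ against adult control µ (limma adjusted p = 0.0573) in the authors' deposited table. Slc16a3, a lactate exporter that HIF1 is known to raise, was lower in transplanted TAµ than in P10 TAµ at -4.78 ± 1.48 (limma adjusted p = 0.0246) in the authors' deposited table. Its average log2 expression of 2.83 in that table lies below the median of all genes, so the size of its change is uncertain.

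Hif1a was set beside the genes that act with it. Of 13 measured HIF subunits and regulators, 3 were higher and 1 lower in P10 TAµ against adult control µ, 3 and 1 in transplanted µ against adult control µ, and 3 and 0 in transplanted TAµ against P10 TAµ, in the authors' deposited table. For genes at large the shares higher and lower were 23.2% and 12.5%, 11.3% and 10.5%, and 10.5% and 15.3%, in that order. Egln1, the main prolyl hydroxylase that marks HIF subunits for destruction, was higher than in adult control µ by 1.42 ± 0.33 in transplanted TAµ, by 1.28 ± 0.31 in transplanted µ and by 0.85 ± 0.27 in P10 TAµ in the authors' deposited table. Hif1an, which hydroxylates HIF1 and blocks its activity, was lower in transplanted µ at -1.12 ± 0.37 (limma adjusted p = 0.0375) in the authors' deposited table. Epas1, which encodes the sister subunit HIF2 alpha, was higher in transplanted TAµ than in P10 TAµ by 3.31 ± 0.47 (limma adjusted p = 8.46e-05) in the authors' deposited table. Between the transplanted fractions Epas1 was higher in TAµ by 1.96 ± 0.50 (limma adjusted p = 0.0261), where Hif1a differed by -0.10 ± 0.29, in the authors' deposited table. Epas1 is also expressed in endothelial cells and astrocytes, whose markers are counted above, and their part in its values was not tested.

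HIF1 targets outside glycolysis were read from a list of 20. Of 18 measured, 4 were higher and 4 lower in P10 TAµ against adult control µ, beside the 23.2% and 12.5% of all genes given above, in the authors' deposited table. Hmox1, the haem-degrading enzyme, was higher by 1.62 ± 0.32 and the transferrin receptor gene Tfrc by 2.16 ± 0.62, whereas the histone demethylase gene Kdm3a was lower at -0.78 ± 0.21, in the authors' deposited table. In transplanted µ against adult control µ 2 were higher and 0 lower, beside 11.3% and 10.5% of all genes. These were the mitophagy gene Bnip3l by 1.28 ± 0.27 and the growth factor gene Vegfa by 3.31 ± 1.13 in the authors' deposited table. In transplanted TAµ against P10 TAµ 2 were higher and 1 lower, beside 10.5% and 15.3% of all genes. The lower gene was Kdm3a at -1.39 ± 0.37 in the authors' deposited table. Vegfa has an average log2 expression of 1.16 in the authors' deposited table, so the size of its change is uncertain.

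Pyruvate made by glycolysis enters mitochondria and the tricarboxylic acid cycle. In transplanted µ against adult control µ 3 of 8 genes of pyruvate entry were higher and 0 lower, beside 11.3% and 10.5% of all genes. Among them were the pyruvate dehydrogenase subunit genes Dlat at 1.40 ± 0.34 and Dld at 1.44 ± 0.37 in the authors' deposited table. Of 16 cycle genes 4 were higher and 0 lower, with Sdha at 1.13 ± 0.26, in the authors' deposited table. In P10 TAµ against adult control µ 10 of 16 cycle genes were higher and 0 lower, beside 23.2% and 12.5% of all genes. The median of the cycle genes was 0.84 and that of all genes 0.41 in the authors' deposited table. In transplanted TAµ against P10 TAµ 1 cycle gene was higher and 1 lower, beside 10.5% and 15.3% of all genes. There the median of the cycle genes was 0.01 and that of all genes -0.33 in the authors' deposited table.

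Branches of the pathway were read through smaller lists. Of 7 pentose phosphate genes, G6pdx, which opens that branch, was higher in P10 TAµ than adult control µ by 1.35 ± 0.27 and Tkt by 1.36 ± 0.30 in the authors' deposited table. Tkt was lower in transplanted TAµ than in P10 TAµ at -1.40 ± 0.36 in the authors' deposited table. Of 10 measured regulators of glycolysis 2 were higher and 2 lower in P10 TAµ against adult control µ, beside 23.2% and 12.5% of all genes. Higher were Pdk3 by 1.25 ± 0.44 and Pdp1, at an average log2 expression of 2.01, by 2.84 ± 0.96 in the authors' deposited table. Lower were Pfkfb2 at -1.06 ± 0.25 and Pfkfb3, which makes an activator of phosphofructokinase, at -0.83 ± 0.16 in the authors' deposited table. Pdk1, a kinase that inhibits pyruvate dehydrogenase and a known HIF1 target, was lower in transplanted TAµ than in transplanted µ at -1.41 ± 0.34 (limma adjusted p = 0.0201), by the authors' deposited table. Of 12 measured genes of gluconeogenesis and glycogen 1 was higher and 0 lower in transplanted µ against adult control µ, beside 11.3% and 10.5% of all genes. That gene was Ugp2, higher by 1.06 ± 0.35 in the authors' deposited table.

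**Figure D4:**
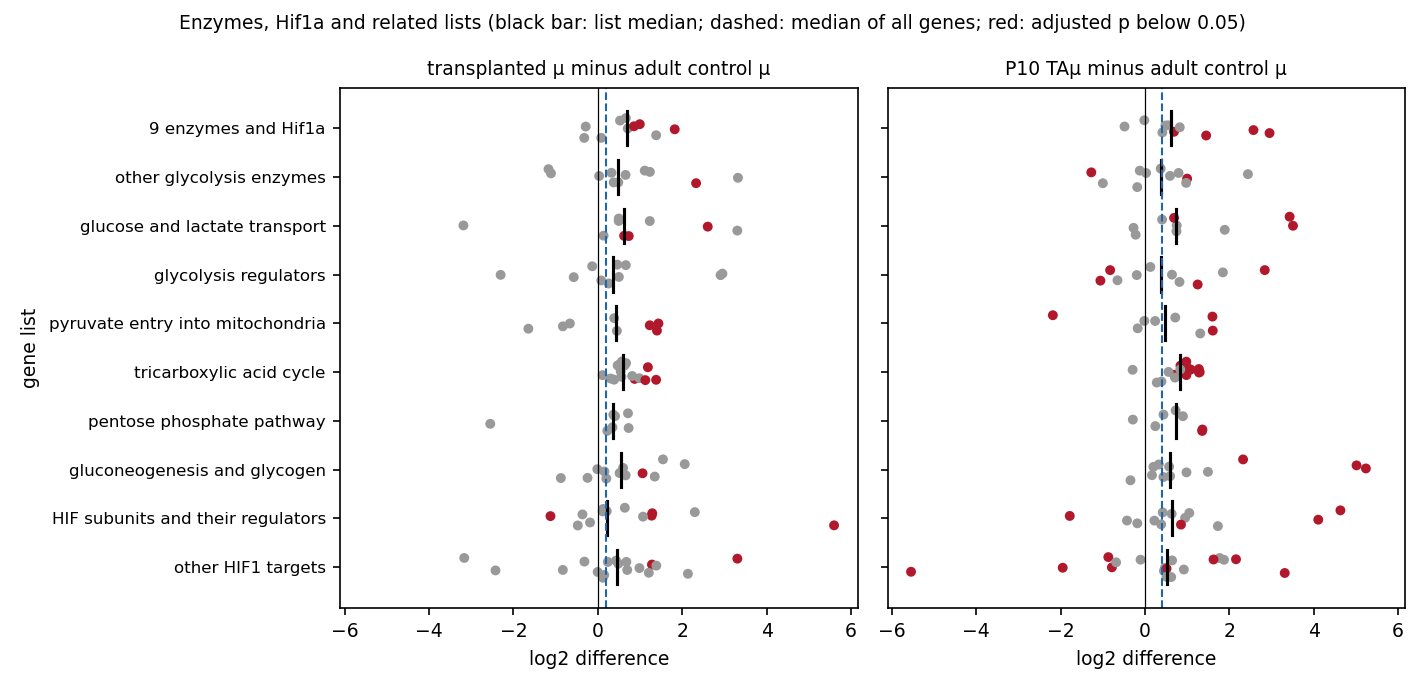
Log2 differences (x axis) of single genes in the 10 lists (y axis) for transplanted µ minus adult control µ (left) and P10 TAµ minus adult control µ (right), with black bars for list medians and a dashed line for the median of all genes, 0.19 and 0.41. The median of the 10 members lies at 0.69 on the left and 0.62 on the right, and list medians lie between 0.21 and 0.69 on the left.

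Genes with the pattern most like that of Hif1a were sought in the 6876 genes whose average expression reached the median, by the Euclidean distance between centred log2 levels over the 4 groups. The nearest were Npc1, Vps26a, Rheb, Ptplb and Spin1, at distances of 0.07 to 0.11 log2 units. For the median of the 9 enzymes they were Crkl, Atp13a3, Ctdsp2, Mis12 and Vps26a, at distances of 0.03 to 0.08 log2 units. With 4 groups such nearness is easily met, and it is given as a description.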

How the data were processed

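RNA sequencing reads came from 17 libraries. STAR 2.3.0, HTSeq 0.5.3, limma and the build mm10 are the names listed, without their roles, per the submitters' processing notes. How values were normalized and genes filtered, and with what annotation and limma settings, is not stated there. The log2 average expression and log2 fold changes, the p-values with their Benjamini-Hochberg adjusted values, and the score columns (moderated F, call) are the authors' own, as the file headers name them in the deposited table. Totals per library were not analysed here, so depth is unknown, and the number of libraries limits precision.

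Which group a fold change was taken from was not stated in the headers, and the sign was set so that 10 of 10 proliferation genes are higher in P10 TAµ. A fold change and its p give the standard error once the degrees of freedom are known; F and its p in 9139 genes gave 18. The contrast between TAµ and µ of the differences from the control used the sum of the squared standard errors and Benjamini-Hochberg adjustment over 13766 genes, 3 genes being without a standard error. In simulated data of 13769 genes 99.97% of the standard errors came back within 1%, and calls equalled those of limma 3.58.1 in 100% of genes. That simulation weighted all libraries equally and left most genes unchanged. Recovered standard errors of Hk1 were 0.60 in transplanted µ and 0.70 in transplanted TAµ against adult control µ, each with 3 libraries. The authors' fit may thus not weight libraries equally, and the simulation checks the recovery and not that fit. The test of that contrast treats the transplanted fractions as independent, although they may share mice.

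The members and lists were chosen with earlier results of these data known. Named genes are all members, the 2 called genes per list and direction whose adjusted p was lowest, and the 5 genes nearest in pattern. Ldhb, Slc2a1, values of such genes in further comparisons, and the markers named for identity were added after values were seen. Scripts ran in Python 3.11.15 with scipy 1.17.1. Alternatives were an adjusted p of 0.01, a minimum absolute log2 difference of 1, Bonferroni adjustment, an expression filter at the first quartile and centring on the median of all genes.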

Additional observations from a re-analysis of the deposited data

Results flagged for a closer look

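The difference between transplanted cells and the control of the same labelled population differed between TAµ and µ for 3 members, by a test of that contrast. The contrast, TAµ minus µ, was -3.41 for Ldha, -2.95 for Pgk1 and -1.31 for Pkm on the log2 scale, derived from the authors' deposited table. Ldha passed under every alternative tried, whereas Pgk1 and Pkm did not pass at an adjusted p of 0.01, under Bonferroni adjustment or with centring, where they were -2.44 and -0.81. The TAµ term sets mice 3 months after transplantation against pups at postnatal day 10, so age, BU treatment and transplantation cannot be told apart in it. In the µ term BU treatment and transplantation cannot be told apart. The share of Pgk1 windows found in other genes limits its value.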

How the results depend on the processing

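No paired analysis was possible because the table holds comparisons and no values per library, and leaving out a library was not possible for the same reason. The filter at the first quartile of expression changed no call of a member in the 7 tests. Under Bonferroni adjustment the members called fell to 0 in transplanted µ against adult control µ, transplanted TAµ against P10 TAµ, transplanted TAµ against adult control µ and transplanted µ against P10 TAµ, and to 1, Ldha, in P10 TAµ against adult control µ and in the contrast of TAµ minus µ. At an adjusted p of 0.01 there was 1 call each in transplanted TAµ against adult control µ, in transplanted µ against P10 TAµ and in the contrast of TAµ minus µ. With a minimum absolute log2 difference of 1 there was 1 in transplanted µ against adult control µ. Centring gave 3 higher and 1 lower both in transplanted TAµ against P10 TAµ and in P10 TAµ against adult control µ. It gave 2 higher and 1 lower in transplanted µ against P10 TAµ, and 1 lower in the contrast of TAµ minus µ. It turned the sign of 3 values that had not passed, Pfkl to -0.10 in transplanted µ against adult control µ, Tpi1 to 0.24 in transplanted TAµ against P10 TAµ, and Hk2 to 0.34 in the contrast of TAµ minus µ. A shift of all genes between groups is removed by centring, and whether it is technical was not tested. Over all genes centring moved the share of higher calls from 52.0% to 37.7%, 40.7% to 60.3%, 65.0% to 40.1%, 37.6% to 62.0% and 28.1% to 61.7% in transplanted µ against adult control µ, transplanted TAµ against P10 TAµ, P10 TAµ against adult control µ, transplanted µ against P10 TAµ and the contrast of TAµ minus µ.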
